A study of Rattus norvegicus with 54 samples.

Results

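The uninfarcted left ventricle was examined by comparing 2 positions within the hearts of sham-operated rats: the piece taken where an infarct would lie after coronary ligation, which is the anterior wall (infarct position), and the ventricular septum (remote). The members were chosen by their labels, and they comprised 12 of the 54 libraries in the study, 6 from each position, paired by the number of the heart. The animals were female athymic rats of the strain F344/NJcl-rnu/rnu, 8 weeks old, which received sham surgery and no further treatment, and the tissue was taken 1 week later. The third piece of the same 6 hearts, the lateral wall (border position), and the infarct and remote pieces of 6 untreated rats of the same strain, sex and age with a ligated coronary artery (myocardial infarction, MI) were used where they showed how the sham difference was placed. Sham hearts have no infarct, so "infarct" and "border" name positions here and not lesions, and the comparison gives the regional baseline that underlies any contrast between infarct and remote tissue. Athymic rats lack a thymus and produce few mature T cells, so the strain is a limited model of the immune cells of the heart. The labels number the hearts under a tag for technical replicates, while the study's methods describe separate animals; if the pieces were not from separate animals, the p-values would measure technical spread alone.

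The walls of the left ventricle are built from the same cell types, but they carry different parts of the conduction system and face different neighbours. The septum carries the bundle branches of the conduction system and borders the right ventricle on its other face, whereas the anterior free wall is covered by epicardium. Cardiac muscle is dense in mitochondria, and transcripts of the sarcomere and of oxidative phosphorylation make up much of its messenger RNA.

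Each library held between 12699204 and 17745272 counts assigned to genes, with a median of 15606645.5 at the infarct position and 16274941.5 in remote. Levels are given as CPM, the counts of a gene per megacount of its library, with library sizes scaled by trimmed means of M-values (TMM). The tissue label held against markers: the summed level of 18 cardiomyocyte genes was 92192 to 114228 CPM at the infarct position and 101144 to 106104 CPM in remote in 5 of the 6 hearts. Genes of skeletal muscle and lung were low beside the cardiomyocyte genes, with Myh4 at most 0.302 CPM and Sftpc at most 0.534 CPM. The 10 skeletal muscle genes summed to 7.61 to 37.8 CPM at the infarct position and 10.1 to 26.1 CPM in remote. Heart 5 was highest at both, and Tnnt3 reached 20.8 CPM. The 6 lung genes summed to 5.15 to 9.10 CPM and 4.03 to 7.74 CPM, with Ager at up to 9.10 CPM. Heart 5 stood apart at every position. Its summed cardiomyocyte level was 35415 CPM at the infarct position and 52328 CPM in remote, Cd3e, the T-cell receptor chain that the other 5 hearts showed at no more than 3.15 CPM, was at 93.8 CPM and 88.4 CPM, and Postn, the matrix protein periostin, was at 303 CPM and 278 CPM against at most 54.5 CPM elsewhere at these positions. The T-cell genes of the heart labelled sham 5 go against its label of an athymic strain, and its muscle and matrix genes set it apart from the other hearts labelled sham; "heart 5" below means the libraries so labelled, and values over all 6 hearts include it. The remote library of heart 6 held 182 CPM of Myl7 and 65.7 CPM of Sln, both genes of atrial muscle, against at most 5.21 CPM and 1.18 CPM in the other remote libraries. In the infarct library of heart 6, 11.7% of the reads aligned to several places, against 3.62% to 5.84% in the other 11 libraries. The part of these libraries in the results below was read by leaving them out.

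**Figure D1:**
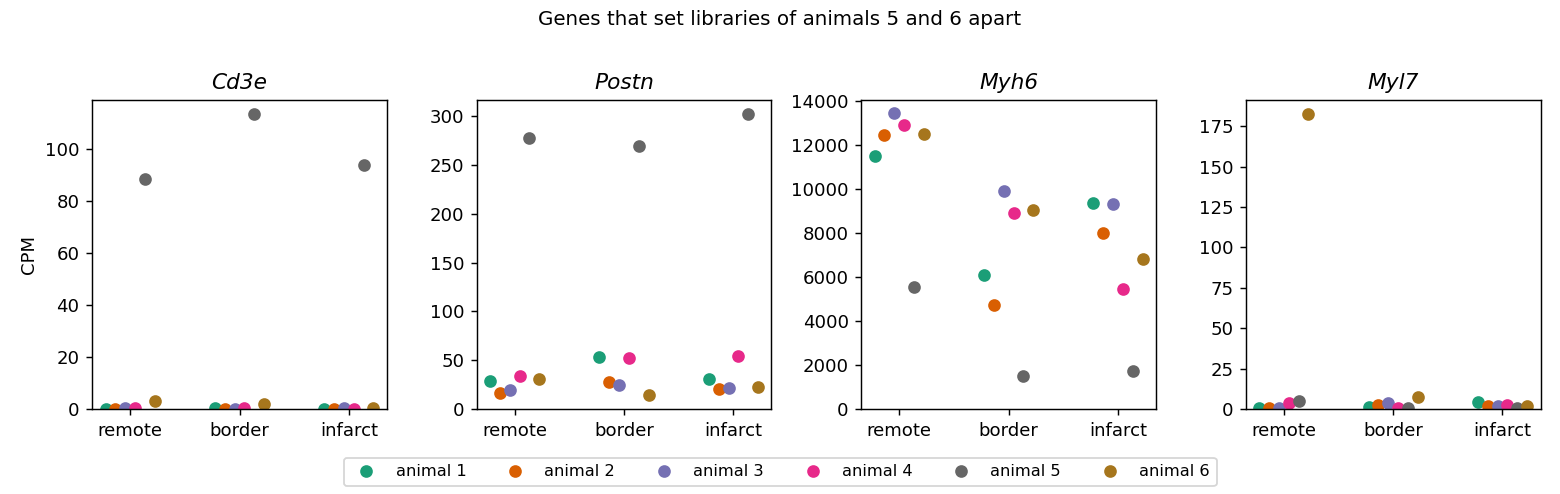
Levels (CPM, linear axis from 0) of 4 genes at each position in the 6 sham hearts, with a point for each library coloured by heart. Heart 5 holds Cd3e at 88.4 CPM or more and the lowest Myh6 at all 3 positions, and the remote piece of heart 6 alone holds Myl7 at 182 CPM.

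The positions differed in many genes by small amounts. Of 15077 genes tested in edgeR with the heart as a block, 4878 (32.4%) had an adjusted p under 0.05, with 2403 (15.9%) higher at the infarct position and 2475 (16.4%) lower. The median absolute log2 fold change over all genes tested was 0.20, and 169 genes (1.12%) were called with an absolute log2 fold change above 1, of which 156 were higher and 13 lower at the infarct position. The direction was the same in 6 of 6 hearts for 4565 genes (30.3%), and the 6 infarct libraries did not overlap the 6 remote libraries for 886 genes (5.88%). Without heart 5 the number of called genes was 4075, of which 3918 had been called in the same direction with all hearts, and without hearts 5 and 6 it was 3358. Without the pairing by heart, 1081 genes (7.17%) were called, 669 of them higher.

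The largest rises at the infarct position were mostly in genes for small proteins of the ribosome and of mitochondria. Tomm7, a subunit of the translocase that brings proteins into mitochondria, was at 94.0 to 152 CPM (median 129) at the infarct position and at 32.5 to 52.1 CPM (median 43.3) in remote. Rps21, a protein of the small ribosomal subunit, was at 247 to 350 CPM (median 306) and at 88.7 to 141 CPM (median 105). Cox7b, a subunit of cytochrome c oxidase, was at 170 to 435 CPM (median 335) and at 71.9 to 160 CPM (median 103). In all 3 genes every infarct library was above every remote library, and the heart with the lowest Cox7b at both positions was heart 5. The log2 fold changes were 1.53 ± 0.09 (SE, adjusted p = 4.44e-08) for Tomm7, 1.44 ± 0.07 (adjusted p = 7.87e-09) for Rps21 and 1.51 ± 0.11 (adjusted p = 2.85e-07) for Cox7b.

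Genes were named by rule, as the 12 largest changes in each direction among called genes that moved alike in all 6 hearts and averaged 1 or more in log2 CPM (3822 genes, 25.3% of those tested, less 192 with placeholder symbols). Of the other 9 rises, 7 were of the ribosome or of mitochondria. Rpl37 and Rpl31l4, which carry names of large ribosomal subunit proteins, were low in level, at medians of 4.90 and 3.36 CPM at the infarct position and 1.44 and 1.14 CPM in remote, and rose by log2 fold changes of 1.90 and 1.59. Cox8b and Cox7c, 2 further subunits of cytochrome c oxidase, rose by 1.61 and 1.44, Ndufb1 of complex I by 1.43 and Atp5mk of the ATP synthase by 1.35. Snrpg, a core protein of the spliceosome, rose by 1.51, Dbi, which binds acyl-CoA esters, by 1.5, and Smim4, which takes part in the assembly of complex III, by 1.41. The 2 groups of libraries did not overlap for 10 of the 12 genes, beside 5.88% of all tested genes. The 12 were chosen on these same libraries for large changes alike in all hearts, which favours such separation. Cox8b and Smim4 overlapped, and in both the lowest infarct library was that of heart 5.

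**Figure D2:**
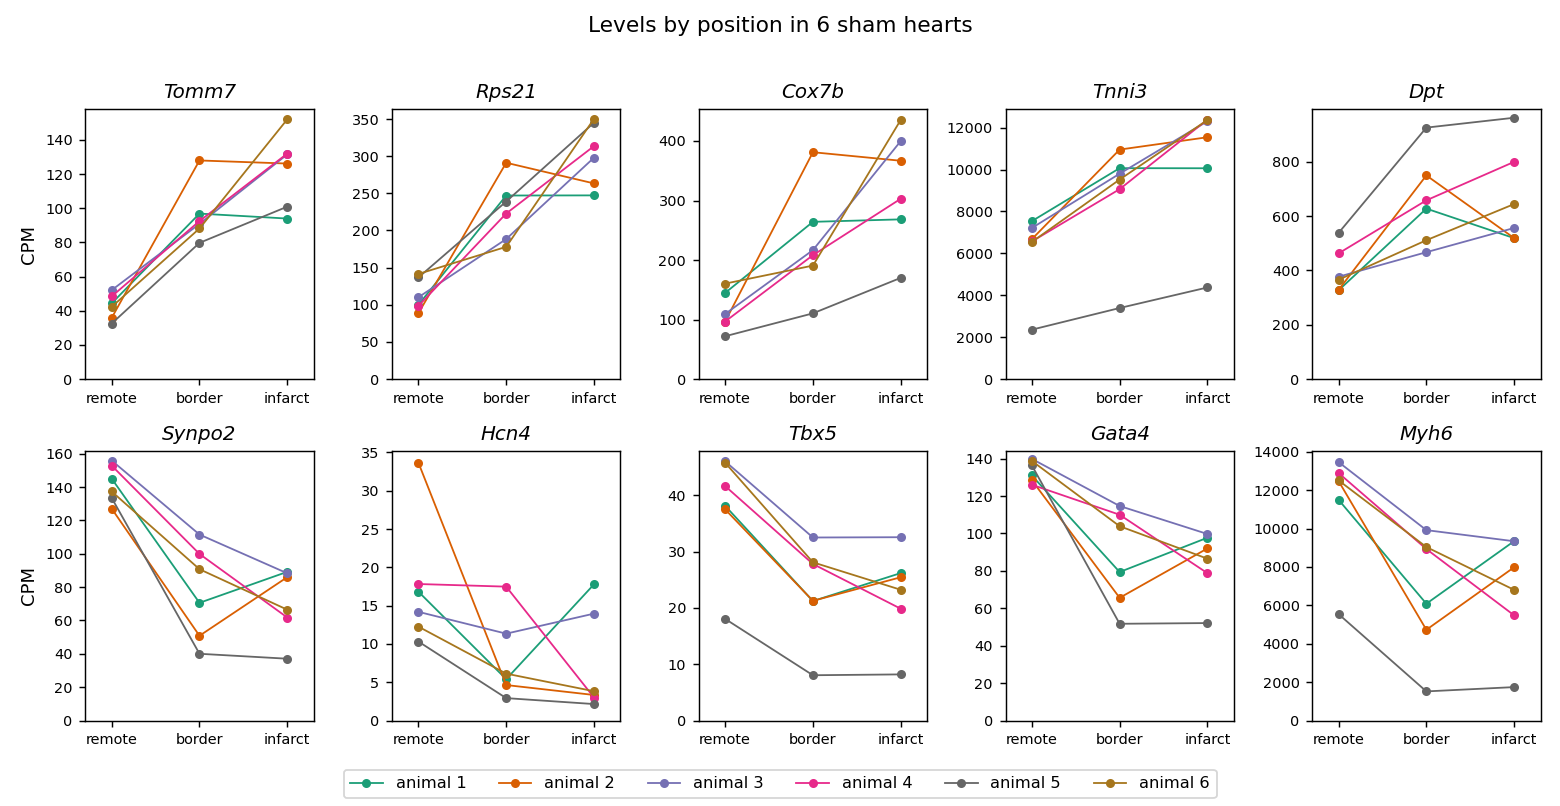
Levels (CPM, linear axes from 0) of 10 genes at the remote, border and infarct positions, with a line for each of the 6 sham hearts. Tomm7, Rps21, Cox7b, Tnni3 and Dpt were higher at the infarct position than in remote in every heart; Synpo2, Tbx5, Gata4 and Myh6 were lower in every heart, and Hcn4 in 5 of 6.

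Ribosomal proteins rose as a group. Of 88 tested genes of the cytosolic ribosome, 82 were higher and 0 lower at the infarct position, with a median log2 fold change of 0.73, beside a median of -6.2e-05 over all genes tested. The summed level was 34595 to 48093 CPM at the infarct position and 21654 to 30398 CPM in remote, and was higher at the infarct position in 6 of 6 hearts. The 6 that were not called included Rpl3l, a muscle form, at -0.14, and Rpl10l at -0.07. Without hearts 5 and 6, 78 were higher. These genes have near-identical copies elsewhere in the genome among which reads may be divided, so the single members are uncertain. Mitochondrial ribosomal proteins moved in the same direction, with 48 higher and 3 lower of 73 and a median of 0.32. Mrpl33 was at 1.33, while Mrpl38 fell by 0.43 and Mrps18b by 0.43. Both ribosomal lists were drawn up after the largest rises had been seen.

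The start of the transcript is a known feature of ribosomal protein genes: their messengers begin with a C and a run of pyrimidines, the 5′ terminal oligopyrimidine tract, through which translation is regulated. The sequences around the annotated start are shown for 2 ribosomal and 2 mitochondrial genes among the 12 largest rises, as examples of each kind. They are the 15 bases before and the 15 bases from the annotated start, on the strand of the gene, from RefSeq on the build GRCr8, and the capitals mark the unbroken run of C and T that begins at the start.
Rpl37 (chr2:55942930-55942959, plus strand): tggtaggcgtactttCTCTTCCggtctctt
Rps21 (chr3:187724023-187724052, plus strand): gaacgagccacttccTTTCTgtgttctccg
Cox8b (chr1:205408259-205408288, minus strand): tgagcagaggacgtgCagcagacattcagg
Cox7c (chr2:18579156-18579185, minus strand): gttgattgcgtccaggaagtccgtgctgta
A C at the annotated start with a run of at least 5 pyrimidines was found at 22 of 66 tested ribosomal protein genes that had an entry (33.3%), at 0 of 85 tested genes of oxidative phosphorylation, and at 722 of all 27457 genes with an entry (2.63%). Among all tested genes with an entry it was found at 323 of 11268 (2.87%). Rps21 was not counted, since its run began with T. Of the 12 largest rises 10 had an entry, and Rpl37 alone held the tract by this definition. Both kinds of gene rose at the infarct position, with and without it.

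Oxidative phosphorylation, the chain of complexes that makes ATP in mitochondria, was higher at the infarct position in 68 and lower in 2 of 101 tested genes, with a median log2 fold change of 0.48. The summed level was 68718 to 79171 CPM at the infarct position and 51881 to 56200 CPM in remote in the 5 hearts other than heart 5, and 31123 CPM against 28589 CPM in heart 5. The members that fell were Cox4i2 (-0.30) and Ndufa10 (-0.29). Several large catalytic or core subunits did not pass the test, among them Sdha (-0.24), Atp5f1a (-0.22) and Ndufs1 (-0.22). Without heart 5 the counts were 70 higher and 0 lower.

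**Figure D3:**
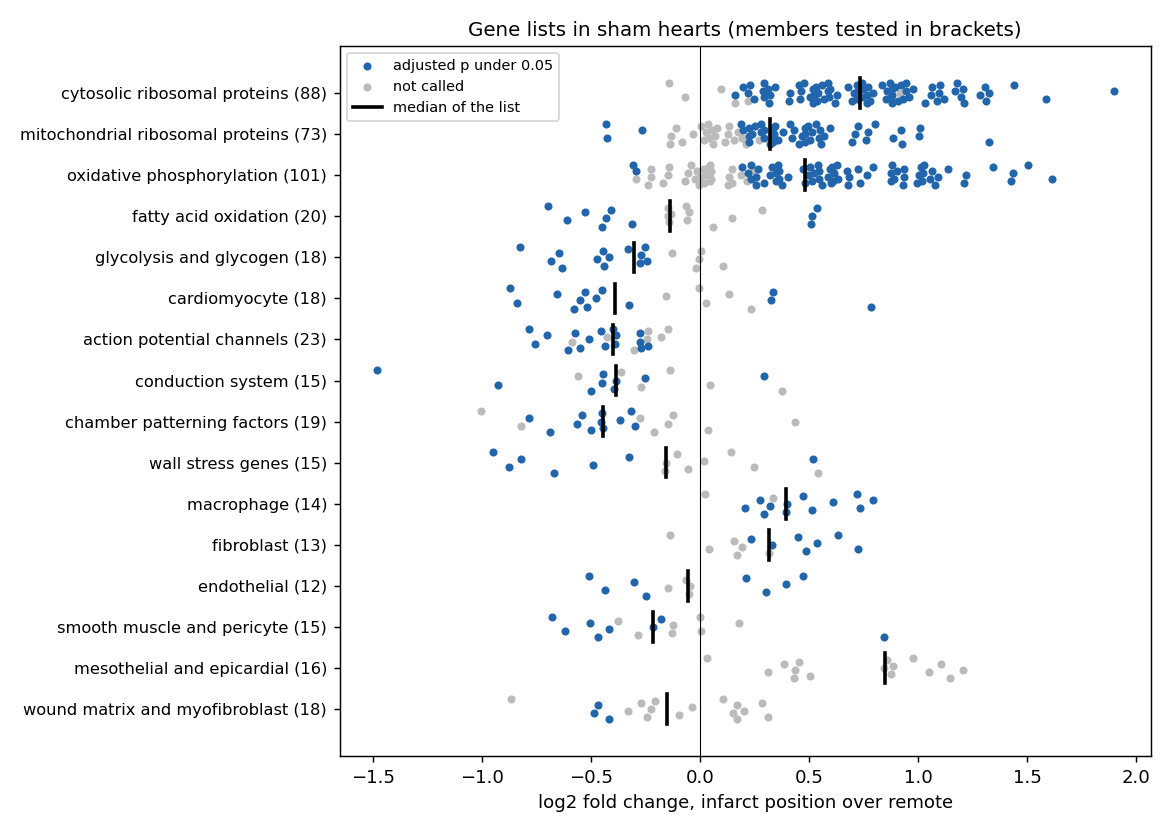
The log2 fold change of the infarct position over remote for each tested member of 16 gene lists, with a point for each gene, blue where the adjusted p was under 0.05 and grey otherwise, and a black bar at the median of each list; the vertical spread of points within a list carries no value. Ribosomal, mitochondrial, macrophage and fibroblast lists lie to the right of 0, and glycolysis, ion channel, conduction and patterning lists to the left.

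Cardiomyocyte genes were more often lower than higher at the infarct position. Of 18 such genes, 3 were higher and 10 lower, with a median of -0.39. Among all tested genes 15.9% were higher and 16.4% lower, so the number higher was near the share over all genes. Myh6, the main myosin heavy chain of the adult rat ventricle, was at 1743 to 9348 CPM (median 7398) at the infarct position and at 5546 to 13465 CPM (median 12495) in remote, and was lower in 6 of 6 hearts (log2 fold change -0.87 ± 0.15, adjusted p = 0.000417). The lowest library at each position was that of heart 5, and apart from it the positions did not overlap. Myh7, the slow myosin heavy chain, fell by 0.88 ± 0.16 (adjusted p = 0.000573), from a remote median of 1884 CPM to 1169 CPM. Actn2, the actinin of the Z-disc, fell by 0.84, the ryanodine receptor Ryr2 by 0.66, the calcium pump Atp2a2 by 0.58 and titin (Ttn) by 0.53.

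Tnni3, the cardiac troponin I, went the other way, at 4371 to 12381 CPM (median 11922) at the infarct position and 2356 to 7535 CPM (median 6620) in remote, higher in 6 of 6 hearts (0.79 ± 0.10, adjusted p = 2.83e-05). Myoglobin (Mb) rose by 0.34, with an adjusted p of 0.0586 without heart 2, and the light chain Myl3 by 0.33, while the light chain Myl2 was at -0.0036 (adjusted p = 0.984). The 3 members that rose spanned 3685 to 7232 bases of genome, and the 10 that fell 5537 to 585615 bases. Among 20 sarcomere isoform genes, which share members with this list, 2 were higher and 7 lower (median -0.13). Of 15 genes of wall stress, 1 was higher and 6 lower. Nppb, the B-type natriuretic peptide, rose by 0.52 ± 0.13 (adjusted p = 0.00826), and Xirp1, an actin-binding protein of the intercalated disc, fell by 0.82 ± 0.12 (adjusted p = 0.000111) with no overlap between positions. Nppa, the atrial natriuretic peptide, varied from 434 to 3225 CPM and from 233 to 3338 CPM, with the highest value in heart 5 at both positions, and did not pass the test (0.54, adjusted p = 0.151). It passed without heart 6, at 0.87 (adjusted p = 0.00562), and without hearts 5 and 6, at 1.10 (adjusted p = 0.000437).

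Genes that occupy a short stretch of genome were more often called higher, and genes that occupy a long one more often lower. Spans were taken from RefSeq on GRCr8 for 14070 of the tested genes (93.3%). In the bin of 1407 genes with the shortest spans, up to 4142 bases, 36.4% were called higher and 4.34% lower, with a median log2 fold change of 0.22. In the bin with the longest, from 127600 bases, 4.90% were called higher and 35.5% lower, with a median of -0.16. The median span was 11077.5 bases for genes called higher, 51274 bases for genes called lower and 23523 bases for the rest. Across genes, which are not independent replicates, Spearman's rho between the log2 fold change and the span was -0.33, and in single hearts it ran from -0.29 to -0.20.

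The span includes introns and is not the length of the messenger, and what produced the relation was not tested. When a smooth trend with span was removed from each library, rho was 0.03 and 4191 of 14070 genes were called, 2053 higher and 2138 lower, and 3459 of them were among the 4691 earlier calls with the same direction. Under that fit ribosomal proteins were higher in 69 and lower in 2 of 87, oxidative phosphorylation in 58 and 5 of 101, macrophage genes in 10 and 0 of 14, patterning factors in 0 and 13 of 19 and channels in 0 and 15 of 23.

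**Figure D4:**
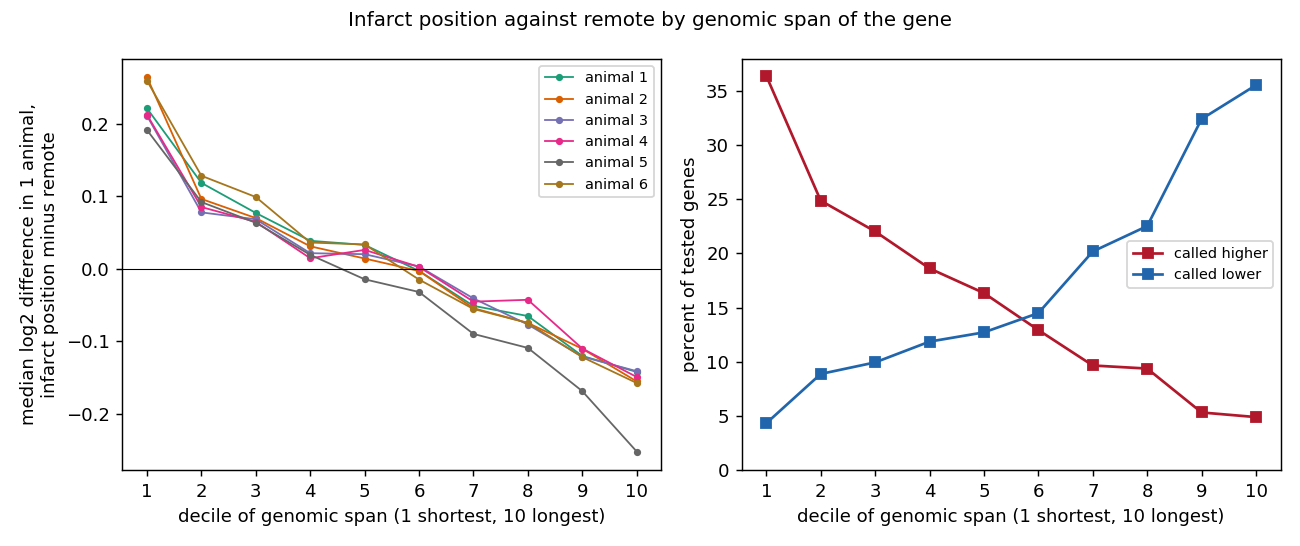
Left, the median log2 difference between infarct position and remote within each of the 6 hearts for 10 bins of 1407 genes ordered by genomic span. Right, the percent of genes in each bin called higher (red) or lower (blue) at the infarct position; the median falls from 0.22 in the shortest bin to -0.16 in the longest, and all 6 hearts show the slope.

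The genes with the largest falls at the infarct position, which are those with the largest excess in the septum, were of mixed function. Synpo2, an actin-binding protein of the Z-disc, was at 37.1 to 89.2 CPM (median 76.2) at the infarct position and at 127 to 156 CPM (median 141) in remote. Wfs1, a membrane protein of the endoplasmic reticulum, was at 8.72 to 18.7 CPM (median 12.9) and at 23.4 to 30.4 CPM (median 28.2). Both were lower in every infarct library than in any remote library, and heart 5 was lowest at the infarct position. The log2 fold changes were -1.04 ± 0.12 (adjusted p = 2.15e-05) for Synpo2 and -1.02 ± 0.11 (adjusted p = 1.28e-05) for Wfs1.

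The positions also did not overlap for the kinase Alpk2 (-1.01), for Lgr6, a receptor for R-spondins (-1.01), and for Gipc3 (-0.93). As with the rises, the choice of these genes on the same libraries favours such separation. They overlapped for Prox1, a homeobox factor of lymphatic endothelium and heart muscle, at -1.0, for the mitochondrial transfer RNA gene Trnl1 at -0.98, for catalase (Cat) at -0.96, and for the glutamate receptor subunit gene Grid1 at -0.88. Sbk2, a kinase gene expressed in atrial muscle, was low, at 0.315 to 2.85 CPM and 0.645 to 11.4 CPM (-1.29 ± 0.23, adjusted p = 0.000652), and its highest remote library was that of heart 6, which also held the other atrial genes. Reep6 fell by 0.92 ± 0.31 (adjusted p = 0.0327), at a remote median of 2.61 CPM, and rested on heart 4: without it the log2 fold change was -0.57 and the adjusted p 0.114, and without heart 5 they were -0.91 and 0.0597. Without the pairing by heart, Cat was not called (edgeR, adjusted p = 0.0699). Neither were Trnl1 (adjusted p = 0.088), Sbk2 (adjusted p = 0.212), Grid1 (adjusted p = 0.221) and Reep6.

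Genes of the conduction system were lower at the infarct position, on balance, with 1 of 15 higher and 8 lower and a median of -0.38. Among all tested genes 15.9% were called higher and 16.4% lower. Hcn4, the pacemaker channel, was at 17.8, 3.34, 14.0, 3.01, 2.15 and 3.83 CPM in hearts 1 to 6 at the infarct position and at 16.8, 33.7, 14.2, 17.8, 10.3 and 12.3 CPM in remote. The infarct levels fell apart, with hearts 1 and 3 at the level of their own septum and the other 4 well under it, and the positions overlapped. The log2 fold change was -1.48 ± 0.36 (adjusted p = 0.0051). Cacna1g, the T-type calcium channel, was at 6.88 to 11.5 CPM (median 8.27) and at 9.96 to 32.5 CPM (median 14.3), lower in 6 of 6 hearts (-0.92 ± 0.15, adjusted p = 0.000269), and highest in the remote piece of heart 6.

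The atrial potassium channel genes Kcnj3 and Kcnj5 fell by 0.50 and 0.38, the connexin gene Gja5 by 0.39, and the factors Tbx3 and Irx3 by 0.45 and 0.44. Cntn2, a marker of Purkinje fibres, did not pass the test (-0.36, adjusted p = 0.323), and Id2 rose by 0.29. Without heart 6 the counts were 1 higher and 6 lower, with Gja5 at an adjusted p of 0.0624. Without hearts 5 and 6 they were 0 and 3, where Tbx3 had an adjusted p of 0.0943, Irx3 of 0.156, Gja5 of 0.0549 and Kcnj5 of 0.0629. Beside these, 2058 of 15090 tested genes were called lower without heart 6, and 1570 of 15082 without hearts 5 and 6. A count of 3 on so short a list is not read as a result about it. Of 4 tested atrial genes 0 were called, and Myl7 was at -1.47.

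Factors that pattern the chambers were lower at the infarct position in 11 and higher in 0 of 19, with a median of -0.44. Tbx3 and Irx3, both lower, are in this list and in the conduction list. Tbx5, a T-box factor needed for septation, was at 8.19 to 32.5 CPM (median 24.3) at the infarct position and at 18 to 46.0 CPM (median 39.9) in remote, lower in 6 of 6 hearts (-0.78 ± 0.09, adjusted p = 2.11e-05). Gata4, its zinc-finger partner, was at 52.1 to 99.7 CPM (median 89.3) and at 126 to 140 CPM (median 134), with no overlap (-0.69 ± 0.10, adjusted p = 0.000121). Heart 5 had the lowest Tbx5 at both positions, and its septum, in contrast, held Gata4 within the range of the others. Tbx20 fell by 0.54, Nkx2-5 by 0.45 and Irx4 by 0.37. Irx5 (-0.56) was called in 8 of 17 alternatives, and lost its call in, among others, DESeq2 (adjusted p = 0.0859) and without heart 2, 4, 5 or 6 (adjusted p = 0.0752 to 0.114). Hand2 (-0.30) lost its call without heart 4 (adjusted p = 0.0986) and without heart 5 (adjusted p = 0.0854). Irx2 (-1.0) and Irx1 (-0.82) did not pass the test.

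Ion channels of the action potential were lower in 16 and higher in 0 of 23, with a median of -0.40, and the counts were unchanged in number without heart 5. The pacemaker channel Hcn2 was at 38.9 to 102 CPM (median 77.5) at the infarct position and at 101 to 157 CPM (median 122) in remote (-0.78 ± 0.12, adjusted p = 0.000169). The L-type calcium channel Cacna1c fell by 0.75, the potassium channel Kcnh2 by 0.60 and Kcna4 by 0.57. The genes of the fast transient outward current did not pass the test, with Kcnd2 at -0.18 (adjusted p = 0.477), Kcnd3 at -0.15 (adjusted p = 0.198) and Kcnip2 at -0.24 (adjusted p = 0.0542). Kcnip2 lay near the threshold: it was called in 8 of 17 alternatives, among them DESeq2 (adjusted p = 0.0145) and limma-voom (adjusted p = 0.0357), and not in the other 9. Kcnd2 was at -0.40 and called without heart 2 (adjusted p = 0.0277). Kcna4, which fell, carries the slow component of this current.

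Genes of fuel use were lower at the infarct position for sugar, and for fat more were called lower than higher. Of 18 genes of glycolysis and glycogen, 0 were higher and 13 lower, with a median of -0.30. Pygm, the muscle glycogen phosphorylase, was at 165 to 672 CPM (median 510) and at 492 to 897 CPM (median 842), lower in 6 of 6 hearts (-0.82 ± 0.13, adjusted p = 0.000193). The hexokinases Hk2 and Hk1 fell by 0.68 and 0.65, and glycogen synthase (Gys1) by 0.63. Of 20 genes of fatty acid oxidation, 3 were higher and 7 lower, beside 15.9% higher and 16.4% lower among all tested genes. The number higher was near that share and is not read as a result about the list. Those that rose included the fatty acid carrier Fabp3 (0.51) and the transporter Cd36 (0.54), and those that fell included Cpt1b (-0.70), which brings fatty acids into mitochondria, and the kinase Pdk4 (-0.61).

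Macrophage and fibroblast genes were higher at the infarct position. Of 14 macrophage genes 12 were higher and 0 lower (median 0.40), and without heart 5 the number higher was 8. C1qa, a chain of complement C1q, was at 60.9 to 677 CPM (median 85.1) at the infarct position and at 39.4 to 390 CPM (median 52.9) in remote, with heart 5 highest at both, and was higher at the infarct position in 6 of 6 hearts (0.72 ± 0.09, adjusted p = 2.05e-05). Of 13 fibroblast genes 7 were higher and 0 lower (median 0.32), and 8 were higher without heart 5. Dpt, the matrix protein dermatopontin, was at 519 to 962 CPM (median 600) and at 327 to 538 CPM (median 371), again higher in 6 of 6 (0.72 ± 0.07, adjusted p = 2.35e-06). Decorin (Dcn) rose by 0.54 with no overlap, and the fibroblast factor Tcf21 by 0.63. In tissue pieces more cells of a type and more RNA per cell cannot be told apart. Of 18 genes of wound matrix and myofibroblasts, 0 were higher and 3 lower (Tnc, Cilp and Acta2). That is 16.7%, near the 16.4% called lower among all tested genes. Postn was at 0.17 and did not pass the test.

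Vessel wall genes were split. Of 15 tested genes of smooth muscle and pericytes, 1 was higher and 7 lower. Notch3, the receptor of mural cells, was at 24.5 to 58.6 CPM (median 47.0) at the infarct position and at 57.6 to 86.7 CPM (median 68.8) in remote (-0.68 ± 0.10, adjusted p = 0.000176). Myh11, the myosin of smooth muscle, fell by 0.62 and Acta2 by 0.47, although Acta2 had an adjusted p of 0.089 without hearts 5 and 6, and the pericyte gene Higd1b rose by 0.85. Of 12 endothelial genes 4 were higher, among them Cldn5 (0.47) and Egfl7 (0.39), and 4 lower, among them Cdh5 (-0.51) and Kdr (-0.44). Endocardial genes were higher in 3 and lower in 1 of 9, and arterial genes in 0 and 3 of 10. Venous genes were higher in 0 and lower in 0 of 5, and lymphatic genes in 2 and 2 of 7. Over all tested genes the shares were 15.9% higher and 16.4% lower. Gja5 is in both the arterial and the conduction list, and Acta2 in both the smooth muscle and the wound matrix list. Fabp4, a fatty acid carrier of capillary endothelium and of fat, rose from a remote median of 504 CPM to 931 CPM (0.98 ± 0.10, adjusted p = 5.69e-06). The adipocyte list, which holds Fabp4, was higher in 2 and lower in 2 of 6 tested, and the other member that rose was Cfd, or adipsin, at 0.96 (adjusted p = 1.67e-06, higher in 6 of 6 hearts). Adipoq, a defining gene of fat cells, was not tested; it was at most 0.0706 CPM at the infarct position and at most 0.215 CPM in remote, apart from 2.44 CPM in the remote piece of heart 6. The part of fat cells in the rise of Fabp4 was not tested.

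Of 16 mesothelial and epicardial genes 0 were called, and the median was 0.85. The SEs ran from 0.11 for the epicardial factor Wt1, which was at 0.03 (adjusted p = 0.858), to 0.68 for Upk1b, at 0.84 (adjusted p = 0.381). Upk3b, a mesothelial surface protein, was at 3.03, 13.8, 6.77, 7.30, 4.15 and 16.5 CPM in hearts 1 to 6 at the infarct position and at 8.54, 0.619, 12.3, 1.40, 1.29 and 3.08 CPM in remote (1.21 ± 0.54, adjusted p = 0.106). It was higher at the infarct position in 4 hearts and lower in hearts 1 and 3, and Msln, or mesothelin, showed the same 4 and 2 (1.15, adjusted p = 0.201). Both were called without heart 1, with Upk3b at 1.80 (adjusted p = 0.0134) and Msln at 1.78 (adjusted p = 0.0411), and without heart 3, at 1.77 (adjusted p = 0.0212) and 1.79 (adjusted p = 0.0416). Without heart 2 they were at 0.71 and 0.54 and not called. Hearts 1 and 3 were also those in which the log2 difference of Hcn4 between positions was smallest, at 0.08 and -0.02. Of 12 nerve genes 2 were higher (16.7%, beside 15.9% of all tested genes) and 0 lower. Npy, the neuropeptide of sympathetic fibres, was at 3.74 to 19.6 CPM and 1.93 to 10.5 CPM (1.12 ± 0.24, adjusted p = 0.00258). Its adjusted p was 0.0511 without hearts 5 and 6.

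Among all tested genes 15.9% were higher and 16.4% lower. Lists of 1 to 5 tested genes are too short to set against these shares. Neutrophil genes were higher in 2 and lower in 0 of 4, T and NK cell genes in 2 and 0 of 5, and B and plasma cell genes in 0 and 0 of 2. The neutrophil genes called were low, S100a8 at most 2.47 CPM and S100a9 at most 5.83 CPM. Cd3e, Cd3d and Cd3g did not pass the filter on low counts. Interferon-stimulated genes were higher in 5 and lower in 0 of 14, and heat shock genes in 3 and 2 of 9. Valve and cartilage matrix genes were higher in 0 and lower in 1 of 9, skeletal muscle genes in 0 and 0 of 3 and lung genes in 0 and 0 of 1. Clock genes, which follow the time of day, were higher in 0 and lower in 6 of 15, with Nr1d1 at -0.64. Immediate early genes, which respond within minutes of handling, were higher in 2 and lower in 2 of 20, with a median of -0.03. Haemoglobin genes divided by kind within the red cell list, in which 3 were higher and 1 lower of 8. The beta genes Hbb, Hbb-bs and Hbb-b1 rose, at 1.10, 1.02 and 0.85. The alpha genes Hba-a1, Hba-a2 and Hba-a3 were at -0.12, -0.02 and -0.18 and were not called. Reads may be divided among the copies within each kind, so single members are uncertain. What set the kinds apart was not tested.

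The genes that the study itself named, most of them of matrix and vessels, were read in the same way. Of 8 tested, 0 were higher and 1, Notch3, was lower (12.5%, beside 16.4% of all tested genes). Col1a1, the main fibrillar collagen, was at 435 to 660 CPM (median 565) at the infarct position and at 483 to 955 CPM (median 598) in remote, with the highest value in the septum of heart 5 (-0.14 ± 0.08, adjusted p = 0.217). Col6a1, Col6a2 and Col6a3 were at -0.04, 0.04 and -0.07, Col12a1 at -0.23, Cxcl12 at -0.16 (adjusted p = 0.0925) and Adam12 at 0.11, none past the threshold. In 14 of 17 alternatives Cxcl12 was not called. It was called without hearts 5 and 6 (-0.24, adjusted p = 0.0332) and, with all hearts, in 2 others. These were library size without TMM (-0.19, adjusted p = 0.0455) and the fit with the span trend removed (-0.21, adjusted p = 0.0244). Ndnf did not pass the filter on low counts. A gene that misses the threshold is not thereby shown to be equal at the 2 positions.

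Few differences were detected between the border and infarct positions, and many between either and remote. Border against remote, which uses the same remote libraries, called 3880 of 15074 genes (25.7%), 1919 higher (12.7%) and 1961 lower (13%), with a median absolute log2 fold change of 0.18 and 102 calls (0.677%) above 1 in absolute log2 fold change. Infarct against border called 1 of 15056 genes (0.00664%), Ndufb3 of complex I (0.51 ± 0.06, adjusted p = 0.0269), which was named after its value was seen. In that comparison 1125 genes (7.47%) had an unadjusted p under 0.05, the median absolute log2 fold change was 0.08, and DESeq2 called 57. The fold changes of the 24 named genes over remote at the border ran beside those at the infarct position: Tomm7 was at 1.18 and 1.53, Rps21 at 1.02 and 1.44, Cox7b at 0.97 and 1.51, Synpo2 at -0.95 and -1.04, and Wfs1 at -0.91 and -1.02. These 24 genes were chosen on the infarct and remote libraries. Both fold changes share the remote libraries, so likeness between them was favoured in advance. Medians of levels in remote, border and infarct position were 103, 212 and 335 CPM for Cox7b and 141, 80.7 and 76.2 CPM for Synpo2. Ribosomal proteins were higher at the border in 76 and lower in 0, and patterning factors higher in 0 and lower in 9.

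How far the sham baseline enters the contrast after infarction was measured as the difference between the region effect in MI hearts and that in sham hearts. It was called for 4748 of 16445 genes (28.9%), 2232 higher (13.6%) and 2516 lower (15.3%) in MI, and for 1518 (9.23%) it exceeded 1 on the log2 scale in either direction. Of the 24 named genes, 14 were called, all 12 of the rises among them. These genes were chosen on the same sham libraries that the difference subtracts. A difference against their sham direction was thereby favoured in advance, so the count is not read as a result about them. Cox7b, at 1.51 in sham hearts, was at -1.62 in MI hearts (adjusted p of the difference = 0.0007), and Tomm7, at 1.53, was at 0.39 (adjusted p = 0.00224). The falls were mostly not shown to differ. Synpo2 was at -1.04 in sham and -1.26 in MI hearts (adjusted p = 0.631), Prox1 at -1.0 and -1.23 (adjusted p = 0.582), and Lgr6 at -1.01 and -1.39 (adjusted p = 0.414). Gata4 was at -0.69 and -0.75 (adjusted p = 0.877) and Hcn4 at -1.48 and -1.37 (adjusted p = 0.842). For Notch3, a gene of the study's list, the sham difference was -0.68 and the MI difference 0.61 (adjusted p = 0.00268), and for Col1a1 they were -0.14 and 1.55 (adjusted p = 0.00153).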

How the data were processed

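Poly(A)-selected RNA from 3 left ventricular positions was sequenced in 54 rat libraries. Per the study's methods, the authors aligned paired reads with STAR to mRatBN7.2 and deposited raw counts per gene for each library; the counter and its use of strand are not given in the sources used here. Each table ended with 5 summary lines (reads outside genes, ambiguous, low quality, unaligned and multiply aligned), which were dropped and held 27.4% to 42.8% of the reads in the 12 libraries compared. The deposited counts of 40319 genes were tested with edgeR 4.0.16 in R 4.3.3 (filterByExpr, TMM, quasi-likelihood F test, Benjamini-Hochberg threshold 0.05) with the heart as a block. The pairing comes from the shared hearts. The deviations of a heart's infarct and remote libraries correlated at 0.316 to 0.439, and at 0.929 in heart 5; in hearts 1 and 2 another heart's remote library correlated higher (0.411 against 0.396 and 0.377 against 0.358). The study's methods used DESeq2 on all samples. Here DESeq2 (1.42.0) was an alternative on the compared libraries alone, with the heart as a block, as was limma-voom (limma 3.58.1). SEs were taken from the log2 fold change and its F statistic. No library pair of a group agreed within sampling noise (chi-square per degree of freedom at least 7.97).

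The 12 largest rises and falls by the naming rule were printed (3630 genes passed; 192 placeholder symbols were left out), together with list members and the study's own genes. Members and lists were chosen with earlier results of these data known. On simulated counts for infarct position against remote, 184 of 200 changed genes of 14932 were recovered among 197 calls (86 of 100 at a log2 fold change of 1 and 98 of 100 at 2). For the difference between MI and sham, 82 of 200 of 16245 genes were recovered among 86 calls. Depth limits genes near 1 CPM, and intervals and SEs cover these libraries only. Spans and start sequences came from RefSeq tables of GRCr8, another build than the files, and were matched by symbol. The other 24 libraries were not used here, and the values of some single list members are not reported here.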

Additional observations from a re-analysis of the deposited data

Results flagged for a closer look

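Heart 5 lay far from the other 5 hearts in many genes. Of 166 sets of 6 libraries (83 genes at 2 positions), 52 held a library whose gap to its nearest neighbour exceeded the 95% critical value of Dixon's test, and in all 52 that library came from heart 5; chance flags about 1 in 20 sets. It was the lowest library in 48 and the highest in 4.

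Its low sarcomere and oxygen-binding genes were, at the infarct position and in remote, Myh6 at 1743 and 5546 CPM, Ttn at 1542 and 2924 CPM, Tnni3 at 4371 and 2356 CPM, Mb at 5845 and 4957 CPM and Myl2 at 3230 and 4522 CPM, with Actn2 at 1359 CPM in remote. Fuel genes were low as well, with Cpt1b at 124 and 304 CPM, Pygm at 165 and 492 CPM, Cd36 at 8.40 and 6.88 CPM, Fabp3 at 1075 and 808 CPM and Fabp4 at 268 and 106 CPM. Channels were low at both positions for Kcnh2 (14.7 and 28.8 CPM), Kcnd3 (8.72 and 12.6 CPM) and Kcnip2 (218 and 334 CPM), at the infarct position for Hcn2 (38.9 CPM) and Kcnj5 (16.1 CPM), and in remote for Cacna1c (61.0 CPM) and Gja5 (7.04 CPM). Among transcription factors, Tbx5 (8.19 and 18 CPM), Nkx2-5 (37.9 and 76.2 CPM) and Hand2 (18.1 and 31.6 CPM) were low at both positions, and Gata4 (52.1 CPM), Irx4 (23.2 CPM), Irx3 (8.67 CPM) and Tbx3 (5.94 CPM) at the infarct position.

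Of the genes with the largest rises and falls, heart 5 was lowest in remote for Dbi (22.6 CPM), Cox7c (252 CPM), Atp5mk (121 CPM), Alpk2 (152 CPM) and Prox1 (16.1 CPM), lowest at the infarct position for Smim4 (11.2 CPM), and highest in remote for Gipc3 (17.1 CPM). Higd1b was lowest at the infarct position (5.20 CPM). C1qa was highest at both positions (677 and 390 CPM) and Trem2 in remote (15.8 CPM).

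The region effect differed between MI and sham hearts, by edgeR's test of the difference, for 14 of the 24 named genes. These genes were chosen on the sham libraries that enter this difference, which favoured a difference against their sham direction. The log2 differences, MI minus sham, were -1.24 for Rpl37, -3.60 for Cox8b, -1.28 for Rpl31l4, -1.13 for Tomm7, -0.64 for Snrpg, -3.12 for Cox7b, -1.53 for Dbi, -1.23 for Rps21, -2.29 for Cox7c, -2.81 for Ndufb1, -1.89 for Smim4 and -2.60 for Atp5mk among the rises, and -1.58 for Trnl1 and 0.76 for Cacna1g among the falls.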

How the results depend on the processing

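All calls made for infarct position against remote under any of the 18 alternatives and also in the reported fit kept their direction. The alternatives used the same libraries or most of them, and only genes called in both fits were compared. A reversal was thereby unlikely in advance. Without the replicate block, 1081 genes were called for infarct against remote, 307 for border against remote, 0 for infarct against border and 1431 for MI minus sham. The cause was not tested, and 41 of the 83 named genes then lost their call. With an absolute log2 fold change above 1 the counts were 169, 102, 0 and 1518. Infarct against border gave 57 genes in DESeq2, 151 with no filter and 0 by library size without TMM. Leaving out a heart gave 3866 to 4723 genes for infarct against remote, 2437 (without heart 1) to 3838 for border against remote, 0 to 2 for infarct against border and 3654 to 5727 for MI minus sham. By library size without TMM, MI minus sham gave 3376 higher and 2024 lower, where the reported fit gave 2232 and 2516, and the median over all genes moved by 0.13 on the log2 scale. Chosen after seeing the data were the span trend (4191 genes), the share of reads outside genes as a covariate (4652) and leaving out hearts 5 and 6 (3358). Across named genes and alternatives, 69 values lost a call, 21 gained a call and 0 reversed; under the span trend Nppb had an adjusted p of 0.215. Depth limits genes near 1 CPM.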
